A study of Mus musculus with 6 samples.

Results

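The dual-specificity MAPK phosphatases are enzymes that remove phosphate from both the threonine and the tyrosine of an activated MAP kinase and thereby switch it off. The 10 genes described here, Dusp1, Dusp2, Dusp4, Dusp5, Dusp6, Dusp7, Dusp8, Dusp9, Dusp10 and Dusp16, were taken by gene name from a table of 55357 genes, and each was found in it as a single entry. RNA-seq had been performed on cultured mouse cortical astrocytes in 3 cultures transfected with a plasmid in which the CMV promoter drives FLAG-tagged BRAF KE (KE), harvested 48 hours later, and in 3 nontransfected cultures (NT). BRAF KE is a gain-of-function, lysine-to-glutamate variant of the kinase BRAF. The study's methods describe cortical astrocyte cultures from C57BL/6 embryos at embryonic day 18, kept in a medium with HB-EGF, a ligand of the EGF receptor, and give no other medium for NT. No culture given an empty plasmid or BRAF WT was analysed here, so the plasmid and BRAF KE cannot be told apart. The labels do not say whether replicates came from separate animals or dissections, so p-values measure only the spread between these cultures.

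MAP kinases are activated by a chain in which RAF phosphorylates MEK and MEK phosphorylates ERK, with parallel chains for JNK and p38. Many MAPK phosphatase genes are themselves switched on by MAP kinase signaling, which makes them classical negative-feedback regulators. They are grouped by location and preferred substrate. DUSP1, DUSP2, DUSP4 and DUSP5 are inducible nuclear enzymes, DUSP6, DUSP7 and DUSP9 are cytoplasmic enzymes directed at ERK, and DUSP8, DUSP10 and DUSP16 act mainly on JNK and p38.

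BRAF KE–transfected astrocytes had more Dusp5, Dusp1, Dusp4, Dusp8 and Dusp16 RNA and less Dusp7 and Dusp6 RNA than nontransfected astrocytes. Among the 8 members that could be tested, the largest rise was that of Dusp5, with 2.03-fold higher values in KE, and the largest fall was that of Dusp7, to 0.745 of NT. Values are the authors' normalized counts, gene counts after DESeq2 scaling. After addition of 1 and log2 transformation they were compared with limma in the 15280 genes whose mean was 10 or more, and adjusted p-values (Benjamini-Hochberg) are over all of these genes. Of the 10 members, 8 passed this filter, 5 were upregulated, 2 were downregulated and 1, Dusp10, was not called. Without KE replicate 3 the 5 upregulated became 3, as Dusp8 and Dusp16 lost their calls. Among all tested genes 51.3% were called, 25.3% as upregulated and 26.0% as downregulated. Dusp2 and Dusp9 lay below the filter. The median log2FC was 0.37 over the 8 tested members and 0.0018 over all tested genes. KE and NT cultures were fully separated in each of the 8, as they were in 59.9% of all tested genes (30.1% with KE higher and 29.9% with KE lower).

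**Figure D1:**
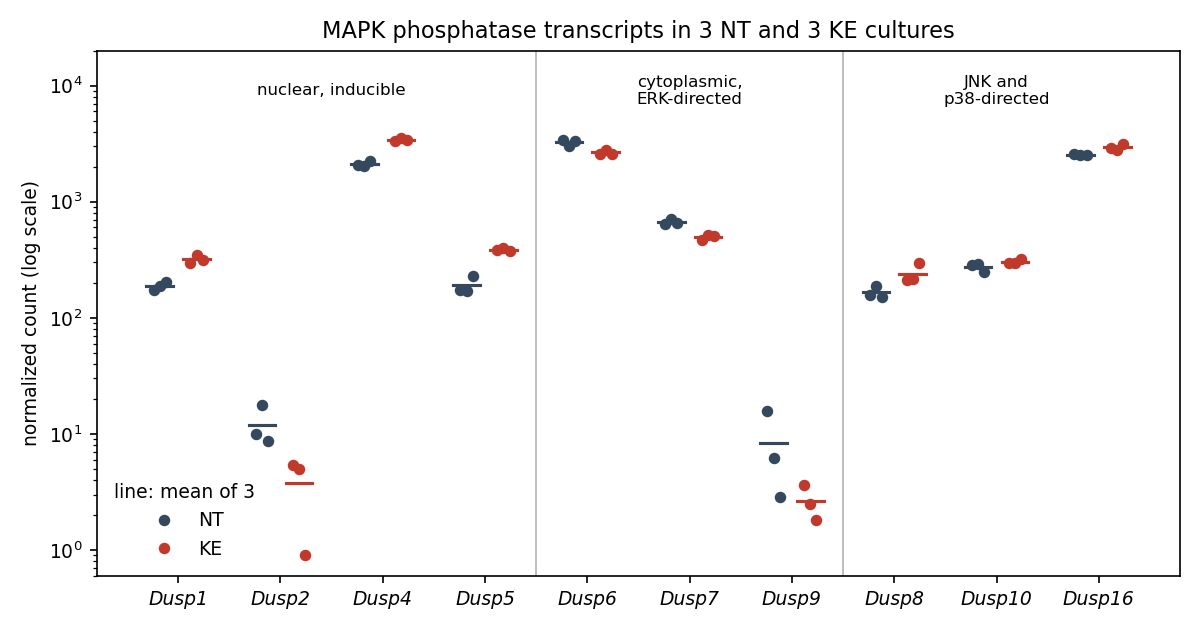
Normalized counts of the 10 MAPK phosphatase genes (log axis) in each NT (dark) and KE (red) culture, with a line at the mean of 3, grouped by enzyme class. Dusp4, Dusp6 and Dusp16 lie above 2000 normalized counts in every culture, Dusp2 and Dusp9 lie below 20, and KE and NT overlap in Dusp9 alone.

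Facts of the cultures that bear on these values are as follows. Braf itself was at 34933 to 40978 normalized counts in KE and at 811 to 946 in NT, with 1 value for plasmid and chromosome together. The depth, estimated from the worth of a single read in each culture, was approximately 24500000 to 34100000 reads, lowest in KE replicate 2. Astrocyte markers differed widely in level: the most abundant, the glutamate transporter gene Slc1a3, was at 46194 to 48297 normalized counts in KE and at 38451 to 41827 in NT. The marker S100b was low, with means of 17.7 in KE and 26.7 in NT. Of 12 astrocyte markers 7 were upregulated and 2 downregulated, where 25.3% and 26.0% of all tested genes were. Microglia and macrophage markers were lower in KE in 23 of 24 tested genes with a median log2FC of -3.35, and the summed normalized count of all 25 fell from 69457 to 88663 in the NT cultures to 9553 to 12578 in the KE cultures. Adgre1 had the highest mean over all cultures among these markers, and Siglech is listed at 0 in all cultures. Oligodendrocyte lineage markers were lower in KE in 7 of 7 tested genes, with a median log2FC of -0.55. Olig1, which had the highest mean of these, was at 19469 to 22863 normalized counts in KE and at 23526 to 23786 in NT. In such bulk samples, fewer cells of a type and less RNA per cell cannot be told apart. The part of these shifts in the phosphatase values, those of Dusp6 and Dusp7 included, was not tested. All 14 genes of an interferon-response list were upregulated, with a median log2FC of 3.77.

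Of the 4 nuclear, inducible phosphatases, 3 were upregulated and Dusp2 was not tested. The upregulated share among all tested genes was 25.3%. DUSP5 is a nuclear phosphatase that acts on ERK and also anchors it there. Dusp5 (ENSMUSG00000034765, chromosome 19 of GRCm39 from 53517532 to 53530862, plus strand) was measured at 383, 399 and 373 normalized counts in KE replicates 1, 2 and 3 and at 172, 172 and 228 in NT replicates 1, 2 and 3. All KE values were above all NT values, and NT replicate 3 was the highest of the NT cultures. KE averaged 385 ± 13.02 and NT 191 ± 32.3 (SD, n = 3 each), and limma gave a log2FC of 1.02 ± 0.13 (SE, adjusted p = 6.3e-05). Of all tested genes, 4.88% had a log2FC as large or larger.

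DUSP1, also known as MKP-1, is an immediate-early phosphatase of p38, JNK and ERK. Dusp1 (ENSMUSG00000024190, chromosome 17 from 26724564 to 26781102, minus strand) was at 297, 350.4 and 316 normalized counts in KE and at 174, 188 and 202 in NT. The lowest KE culture exceeded the highest NT culture, and no culture stood apart from its group. Averages of 321 ± 27.3 in KE and 188 ± 14.0 in NT (SD, n = 3 each) corresponded to a log2FC of 0.77 ± 0.12 (SE, limma adjusted p = 2.3e-04). On the opposite strand, Ergic1 overlaps exons of some Dusp1 transcripts but not the longest coding one, and Ergic1 had a log2FC of 0.04 (adjusted p = 0.59).

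DUSP4, or MKP-2, is a nuclear phosphatase of ERK and JNK. Dusp4 (ENSMUSG00000031530, chromosome 8 from 35274442 to 35287048, plus strand) was at 3359, 3526 and 3423 normalized counts in KE and at 2054, 2030.1 and 2224 in NT. The replicates lay close together, and the groups were far apart relative to that spread. KE averaged 3436 ± 84.1 and NT 2103 ± 106 (SD, n = 3 each). Of the 8 tested members Dusp4 had the smallest limma adjusted p, 2.7e-06, at a log2FC of 0.71 ± 0.06 (SE).

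Dusp2 (ENSMUSG00000027368, chromosome 2 from 127177957 to 127180296, plus strand) encodes a phosphatase first known from activated immune cells, and its values were lower in KE, unlike those of Dusp5, Dusp1 and Dusp4. Its normalized counts were 5.42, 5.003 and 0.905 in KE and 9.90, 17.6 and 8.60 in NT, which correspond to approximately 6, 4 and 1 reads and 10, 17 and 9 reads. The groups did not overlap, but a value near 1 read carries a large counting error. With a mean of 7.90, the gene was below the filter and was not tested. Without the filter its log2FC was -1.58 with an adjusted p of 0.045 from limma. The difference of mean log2 was -1.01 without KE replicate 3 and -0.96 with a pseudocount of 5. The microglia and macrophage markers described above were lower in the same cultures, and their part in the Dusp2 values was not tested.

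Promoter sequences are shown for the 3 members in which a full CRE or a CArG box, explained below, was found, and for Dusp6 as the most abundant member in NT. RefSeq promoter windows (GRCm38.p6) were available for 8 members, with Dusp4 and Dusp9 not among them, and each was placed on GRCm39 by a single exact match. The 250 bases before the RefSeq start were searched on both strands for the cAMP response element (CRE, TGACGTCA), its core TGACG, which is also part of each CRE, the CArG box bound by serum response factor, and other motifs. The stretches below run 5′ to 3′ on the gene's strand and end where the first Gencode exon within the window begins. Longer Gencode transcripts of Dusp1, Dusp6 and Dusp8 start further upstream, at 26781102, 99086564 and 141649580, so these 3 stretches lie inside the Gencode gene, while that of Dusp5 lies before it. Capitals mark CRE, CRE core and CArG letters, with CGTCA as the core on the opposite strand.
Dusp1, chr17:26727507-26727696, minus strand: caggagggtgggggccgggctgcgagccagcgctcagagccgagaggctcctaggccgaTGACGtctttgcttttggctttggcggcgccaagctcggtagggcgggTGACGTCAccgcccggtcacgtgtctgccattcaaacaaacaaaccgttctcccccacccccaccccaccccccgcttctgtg
Dusp5, chr19:53517326-53517531, plus strand: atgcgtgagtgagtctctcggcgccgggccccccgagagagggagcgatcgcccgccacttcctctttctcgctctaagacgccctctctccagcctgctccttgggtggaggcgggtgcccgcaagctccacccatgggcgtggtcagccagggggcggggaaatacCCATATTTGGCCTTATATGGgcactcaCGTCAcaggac
Dusp8, chr7:141649053-141649271, minus strand: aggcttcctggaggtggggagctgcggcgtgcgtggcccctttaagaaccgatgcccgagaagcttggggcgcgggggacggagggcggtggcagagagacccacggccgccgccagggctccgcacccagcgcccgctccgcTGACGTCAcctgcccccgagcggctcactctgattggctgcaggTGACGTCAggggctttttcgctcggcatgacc
Dusp6, chr10:99098843-99099067, plus strand: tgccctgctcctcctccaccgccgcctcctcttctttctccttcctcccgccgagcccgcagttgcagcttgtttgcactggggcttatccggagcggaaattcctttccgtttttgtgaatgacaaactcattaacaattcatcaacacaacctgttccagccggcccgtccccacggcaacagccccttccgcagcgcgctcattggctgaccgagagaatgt

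A full CRE was found in the windows of Dusp1, at 143 to 136 bases before the RefSeq start, and of Dusp8, at 107 to 100 and at 63 to 56 bases before it. It is present in 1.55% of the 32851 promoter windows of the same length. CArG boxes were found in Dusp5 alone, as 2 adjoining boxes at 82 to 73 and 72 to 63 bases before the start, and 1.47% of all windows hold at least 1. The core TGACG was in 4 of the 8 windows, those of Dusp1, Dusp5, Dusp8 and Dusp16, and in 17.8% of all windows. Dusp6, Dusp7, Dusp10 and Dusp2 held none of these letters. The windows of Dusp7 and Dusp10 lie wholly inside Gencode exons. The outermost Gencode start is also upstream of the whole window in Dusp1, Dusp6, Dusp8 and Dusp16, so the windows stand for the RefSeq start only. The GC box GGGCGG was in 6 windows (32.7% of all), the EGR site GCGNGGGCG in Dusp2 and Dusp16 (4.7%) and the E-box CACGTG in Dusp1 and Dusp2 (6.02%). The AP-1 site TGANTCA, the ETS form CCGGAA and the TATA box TATAAA were in 0 of the 8 (6.75%, 12% and 12.4% of all). Also in 0 of the 8 were the interferon regulatory factor site and the STAT site TTCNNNGAA (2.98% and 7.02%). The shorter ETS core GGAA was not searched for, and its letters occur in the Dusp6 stretch above. A match describes letters in this window and does not show that a factor binds there.

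Both tested members of the cytoplasmic, ERK-directed class were downregulated, as were 26.0% of all tested genes. Dusp5, Dusp1 and Dusp4 were upregulated, and a difference between the classes was not tested. DUSP6, or MKP-3, binds ERK in the cytoplasm and is a standard readout of ERK activity. Dusp6 (ENSMUSG00000019960, chromosome 10 from 99086564 to 99103361, plus strand), whose promoter is printed above, was at 2594, 2799.7 and 2594 normalized counts in KE and at 3374, 2999.5 and 3353 in NT. The highest KE culture and the lowest NT culture, both replicate 2, came close without overlapping. KE averaged 2662.5 ± 119 and NT 3242 ± 210.3 (SD, n = 3 each). Dusp6 fell by 0.28 on the log2 scale (SE 0.07, limma adjusted p = 0.0040), and 26.2% of tested genes had a log2FC as low or lower.

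DUSP7 is a close relative of DUSP6 with the same preference for ERK. Dusp7 (ENSMUSG00000053716, chromosome 9 from 106245143 to 106252923, plus strand) was at 468, 515 and 509 normalized counts in KE and at 640.0, 709.8 and 656 in NT. Every KE culture was lower than every NT culture by more than the spread within either group. With averages of 498 ± 25.6 in KE and 669 ± 36.6 in NT (SD, n = 3 each), its log2FC was -0.43 ± 0.08 (SE, limma adjusted p = 0.0015).

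Dusp9 (ENSMUSG00000031383, chromosome X from 72679169 to 72687124, plus strand), the remaining ERK-directed member, was barely detected. Its normalized counts were 3.62, 2.50 and 1.81 in KE and 15.8, 6.21 and 2.86 in NT, approximately 4, 2 and 2 reads and 16, 6 and 3 reads. The NT cultures differed widely among themselves and overlapped with KE. No difference was detectable at this depth: without the filter the log2FC was -1.12 with an adjusted p of 0.17 from limma.

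**Figure D2:**
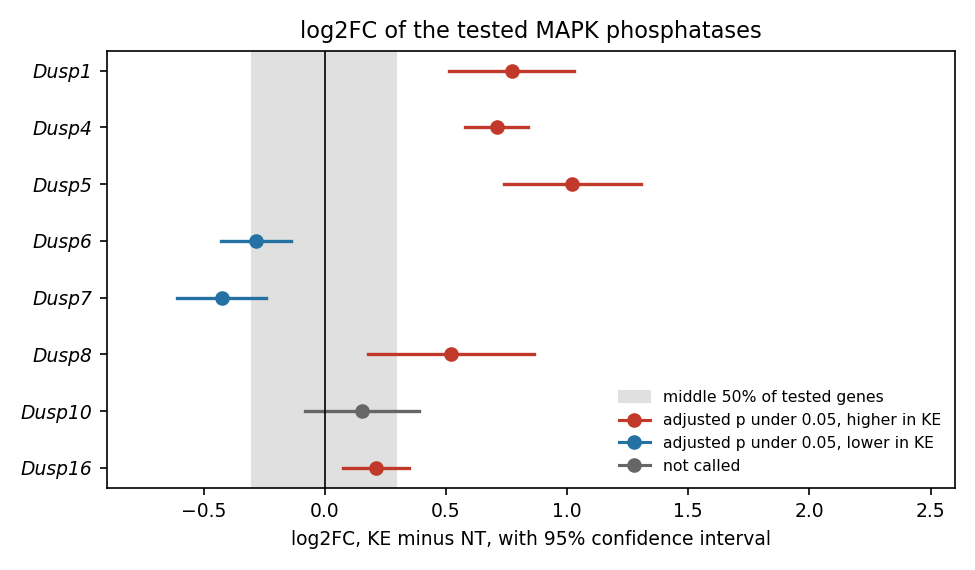
log2FC (KE minus NT, on the log2 of normalized count plus 1) of the 8 tested members, with 95% confidence intervals from limma; the grey band runs from the lower to the upper quartile of all tested genes, -0.30 to 0.29. Dusp1, Dusp4, Dusp5, Dusp8 and Dusp16 lie to the right of 0, Dusp6 and Dusp7 to the left, and the interval of Dusp10 includes 0.

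Of the 3 JNK and p38-directed phosphatases, 2 were upregulated, against 25.3% of all tested genes, each with a call that rests on KE replicate 3. DUSP8 is a phosphatase known from brain and heart that acts on JNK and p38. Dusp8 (ENSMUSG00000037887, chromosome 7 from 141633226 to 141649580, minus strand) was at 209.9, 214 and 294 normalized counts in KE and at 158, 187 and 151 in NT. KE replicate 3 was far above the other KE cultures, which themselves were above all NT cultures. The averages were 239 ± 47.4 in KE and 165 ± 18.8 in NT (SD, n = 3 each), and the log2FC was 0.52 ± 0.16 (SE, limma adjusted p = 0.016). Without KE replicate 3, the log2FC was 0.36 with a limma adjusted p of 0.072 (0.0050 to 0.072 over all alternatives tried), so the call rests on that culture.

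DUSP16, or MKP-7, shuttles between nucleus and cytoplasm and acts on JNK. Dusp16 (ENSMUSG00000030203, chromosome 6 from 134692431 to 134784241, minus strand) was at 2893, 2769 and 3147 normalized counts in KE and at 2558, 2506 and 2541 in NT. The NT cultures were nearly equal, with a coefficient of variation of 1.05%, and KE replicate 3 was again the highest. KE averaged 2936 ± 193 and NT 2535 ± 26.6 (SD, n = 3 each), with a log2FC of 0.21 ± 0.06 (SE, limma adjusted p = 0.015). Without KE replicate 3 it was 0.16 with a limma adjusted p of 0.055 (0.0090 to 0.055 over all alternatives tried), and this call too rests on that culture.

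DUSP10, or MKP-5, acts on JNK and p38. Dusp10 (ENSMUSG00000039384, chromosome 1 from 183745499 to 183807842, plus strand) was at 297, 298 and 321 normalized counts in KE and at 286, 289 and 249 in NT. The groups did not overlap, but the gap between 289 and 297 was smaller than the spread within either. The log2FC was 0.15 with a 95% confidence interval of -0.08 to 0.39 (limma adjusted p = 0.25), an interval that includes the log2FC of 0.21 of Dusp16.

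**Figure D3:**
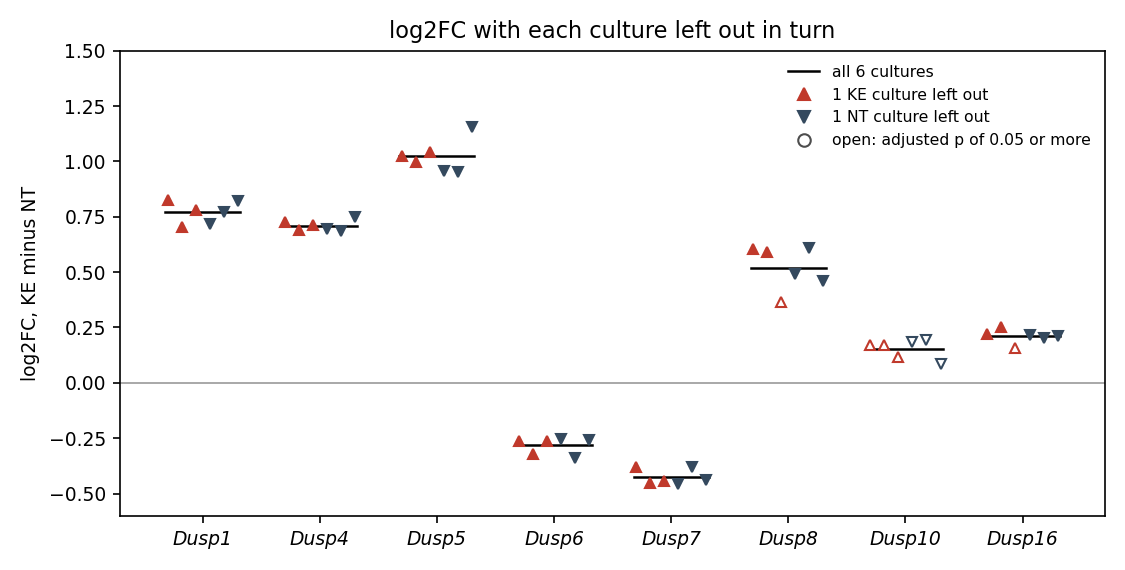
log2FC of the 8 tested members with all 6 cultures (black line) and with each KE (upward triangle) or NT (downward triangle) culture left out; open symbols have an adjusted p of 0.05 or more. All signs are kept, and the call is lost for Dusp8 and Dusp16 when KE replicate 3 is left out.

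Levels were compared between genes as normalized counts per kilobase of the longest coding transcript. In NT the most abundant member was Dusp6 with 1136 ± 73.7 normalized counts per kilobase (SD, n = 3), followed by Dusp4 with 765 ± 38.5, Dusp16 with 466 ± 4.88 and Dusp7 with 169 ± 9.25. Dusp1 (93.8 ± 6.98 per kilobase), Dusp5 (76.9 ± 13.03) and Dusp10 (76.8 ± 6.23) came next, and neighbours among these 3 overlapped between cultures. Dusp8, Dusp2 and Dusp9 were the lowest at 22.5, 6.92 and 2.55 per kilobase. In KE the first place was taken by Dusp4 with 1249.9 ± 30.6 per kilobase, ahead of Dusp6 with 933 ± 41.6 and Dusp16 with 539 ± 35.4. Dusp1 and Dusp5, at 161 ± 13.6 and 155 ± 5.25 per kilobase, overlapped with each other and were both above Dusp7 at 126 ± 6.47. Dusp10 followed at 85.4 per kilobase, then Dusp8 at 32.6, while Dusp2 and Dusp9 overlapped at 2.17 and 0.812. With the length of all exons of a gene in place of the longest coding transcript, Dusp1 fell behind Dusp5 in both groups and behind Dusp7 in KE.

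The exchange of places between Dusp4 and Dusp6 was seen in each culture. The ratio of Dusp4 to Dusp6, per kilobase, was 1.34, 1.31 and 1.37 in KE and 0.632, 0.703 and 0.689 in NT. The corresponding ratio of Dusp5 to Dusp7 was 1.30, 1.23 and 1.17 in KE and 0.429, 0.385 and 0.553 in NT. Both ratios were above 1 in all KE cultures and below 1 in all NT cultures.

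The summed level of the 10 genes per kilobase was higher in KE, at 3285 ± 78.7 against 2815 ± 98.2 in NT (SD, n = 3 each). The nuclear, inducible members made up 47.7% ± 0.623 (SD, n = 3) of this sum in KE and 33.5% ± 1.27 (SD, n = 3) in NT. The share of the cytoplasmic, ERK-directed members was 32.3% ± 0.85 in KE and 46.4% ± 1.13 in NT. The JNK and p38-directed members kept a share of 20.0% ± 1.47 in KE and 20.1% ± 0.868 in NT. These shares are dominated by Dusp4, with 38.1% in KE and 27.2% in NT, and by Dusp6, with 28.4% and 40.3%. They describe the sum over members chosen with earlier results known and were not tested.

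**Figure D4:**
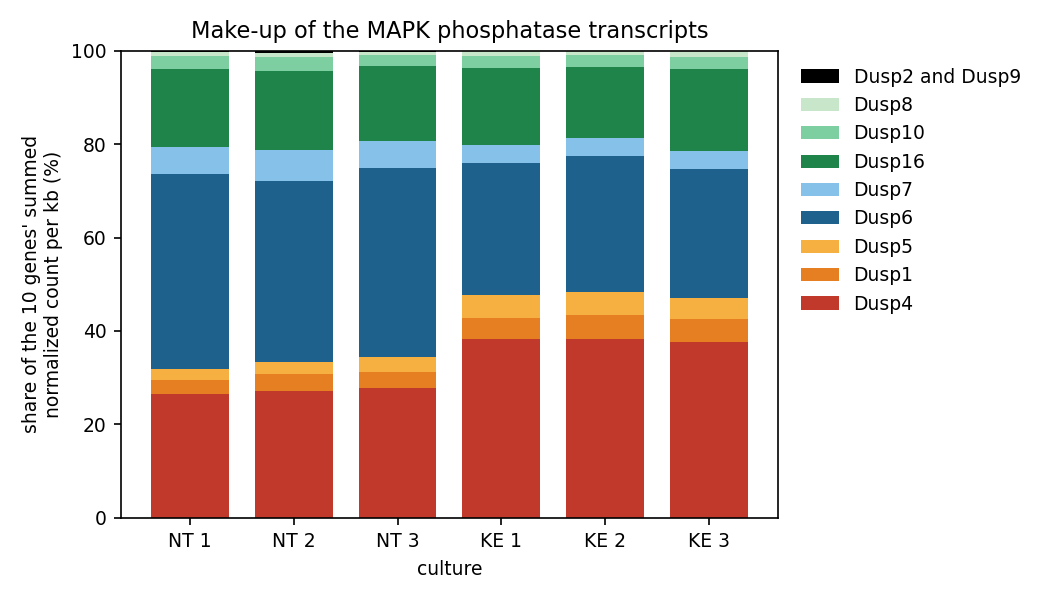
Share of each gene in the summed normalized count per kilobase of the 10 MAPK phosphatase genes, in percent, in each NT and KE culture. The red and orange parts (Dusp4, Dusp1, Dusp5) take, with Dusp2, 32.1% to 34.6% of the bar in NT and 47.1% to 48.3% in KE, while the blue parts (Dusp6, Dusp7) shrink.

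Other genes of the MAPK pathway were read from the same fit, in which 25.3% of all tested genes were upregulated and 26.0% downregulated. Sprouty and Spred proteins, which inhibit RAS-RAF signaling and are likewise induced by ERK, had 2 of 6 tested genes upregulated, 2 downregulated and a median log2FC of 0.12, which is close to that background. Without KE replicate 1, KE replicate 3 or NT replicate 2, 1 was upregulated. Spred3 (log2FC 0.56) and Spred1 (0.23) rose, and Spry1 (-1.13) and Spry4 (-0.30) fell. Other phosphatases, namely atypical dual-specificity phosphatases, slingshot phosphatases and tyrosine or serine/threonine phosphatases of MAP kinases, included 5 upregulated and 5 downregulated among 20 tested, with a median log2FC of 0.01. Without KE replicate 1, KE replicate 3 or NT replicate 1, 3 were downregulated. Dusp28, Dusp14, Dusp15 and Dusp18 rose by log2FC of 0.84, 0.67, 0.64 and 0.30, and Dusp3 (-0.32), which encodes the small phosphatase VHR, and Dusp23 (-0.49) fell. Ptpn7, a tyrosine phosphatase of ERK and p38 in blood cells, had a log2FC of -2.92, from 131 ± 9.66 (SD, n = 3) normalized counts in NT to 16.8 ± 4.64 (SD, n = 3) in KE, in the same cultures in which microglia and macrophage markers were lower. Ssh2, a cofilin phosphatase, was also lower, with a log2FC of -1.23.

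Of the MAP kinases on which the phosphatases act, 3 of 12 tested were upregulated and 4 downregulated, with a median log2FC of -0.01, against 51.3% called among all tested genes. The 4 downregulated became 2 without KE replicate 2, KE replicate 3, NT replicate 2 or NT replicate 3. Mapk13 (p38 delta) and Mapk10 (JNK3) rose by 1.24 and 0.91 on the log2 scale and Mapk9 (JNK2) by 0.39, while Mapk11 (p38 beta), Mapk7 (ERK5), Mapk6 (ERK3) and Mapk14 (p38 alpha) had log2FC of -0.49, -0.20, -0.19 and -0.18. Among the 7 MAP kinase kinases, Map2k1 (MEK1, log2FC 0.70) and Map2k4 (MKK4, 0.46) rose and Map2k6 (MKK6, -0.70) fell.

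Transcription factors that can act on promoters of these phosphatases, immediate-early factors included, were read as well. Of 26 tested, 14 were upregulated and 8 downregulated, with a median log2FC of 0.20, against 25.3% and 26.0% of all tested genes. The largest rises among those with a mean of at least 50 were those of Fosb, Fosl1, Atf3 and Egr2, with log2FC of 3.15, 1.72, 1.55 and 1.12. Fosb went from 21.8 ± 1.95 (SD, n = 3) normalized counts in NT to 203 ± 37.0 (SD, n = 3) in KE. ETS factor genes moved in both directions: Ets2 (-0.94), Etv4 (-0.45), Etv1 (-0.39) and Elk4 (-0.34) fell, while Etv5 (0.36), Elk1 (0.21) and Ets1 (0.21) rose. Creb1, whose product binds the CRE, fell as well (-0.64). Other ATF and CREB family genes were mixed: Atf3 rose (1.55), Atf1 fell (-0.21), and Crem (0.13) and Atf2 (0.03) were not called. Srf (-0.35), which encodes the serum response factor that binds the CArG box, also fell. Levels of factor activity were not measured.

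**Figure D5:**
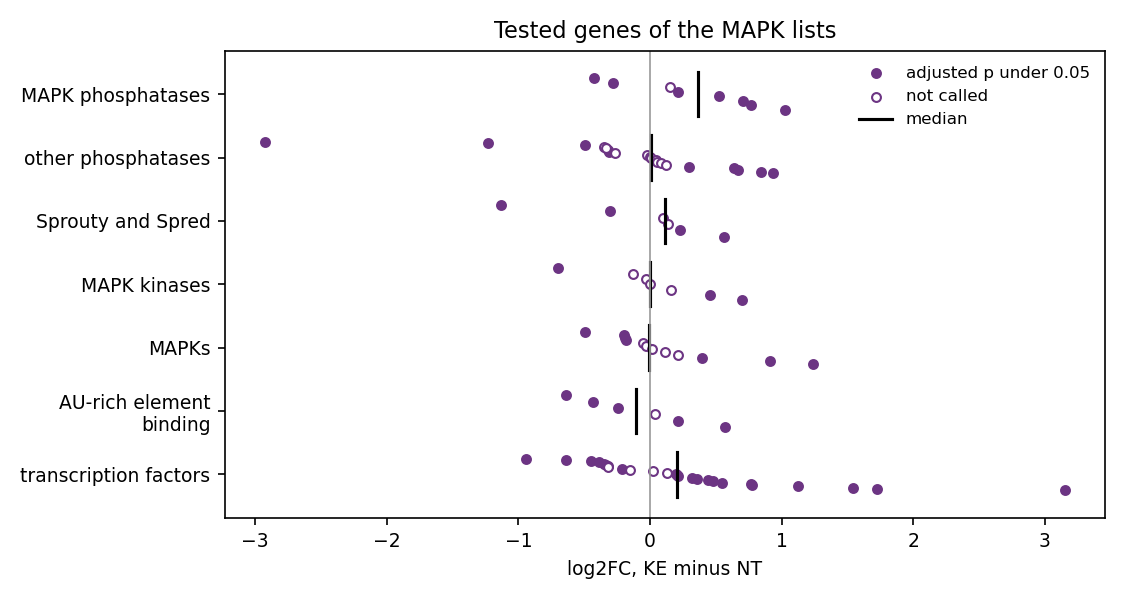
log2FC (KE minus NT) of the tested genes of the MAPK phosphatases and of 6 further lists of the pathway, filled where the adjusted p is under 0.05, with a bar at each list's median. The medians of the other phosphatases, the MAP kinases and the MAP kinase kinases lie near 0, that of the MAPK phosphatases at 0.37 and that of the transcription factors at 0.20.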

How the data were processed

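The authors deposited 1 normalized signal value per gene and culture, that is, Salmon gene counts scaled by DESeq2. The study's methods name TrimGalore, STAR, GRCm39 and Gencode vM28; the labels' processing notes name GRCh38, but the gene identifiers are mouse, and 54749 of 55357 were found in Gencode vM39. Groups were taken from the sample titles, since the treatment text is the same for all samples. The library kit was stranded, and the strand setting of the counting is not given in the sources used here. The methods mention a batch adjustment, but no batch is named, so none was modelled.

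A linear model with group as the only factor was fitted to log2(normalized count + 1) with limma 3.58.1 (R 4.3.3, variance trend), restricted to genes averaging 10 or more. Tests are two-sided, and called genes had an adjusted p under 0.05. The fit took its precision from the spread between cultures, as read depth was not part of the model. Scaling leaves the counting error of low values in place. In no culture were more than 77.5% of low values within 0.1 of whole reads, so no count test was run. On simulated data with 15280 genes, the fit called 71% of genes changed by a log2 of 1 and 32% of those changed by 0.5. It also called 2 of 15080 unchanged genes. Only 100 genes were changed by each amount, whereas 51.3% of genes were called in the data. The multiple-testing adjustment therefore differed, and the simulated shares do not give the power of this fit. Coordinates and transcript lengths came from Gencode vM39 on GRCm39.

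The members, lists and motifs were chosen with earlier results of these data known. The genes named are the members, Braf, up to 4 called genes per list and direction with a mean of at least 50, and the most abundant cell type markers; others were named after their values were seen. Alternatives were other pseudocounts, filters and scalings, limma without the trend, the replicate number as a block, another gene length, and leaving out each culture in turn.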

Additional observations from a re-analysis of the deposited data

How the results depend on the processing

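The calls of Dusp1, Dusp4, Dusp5, Dusp6 and Dusp7 kept their direction and side of the threshold under all 15 alternatives tried, with log2FC of 0.71 to 0.88, 0.68 to 0.75, 0.95 to 1.16, -0.34 to -0.25 and -0.46 to -0.38. Dusp10 stayed uncalled under all 15, with 0.09 to 0.23. When single cultures were left out, 3 to 5 members were upregulated and 2 downregulated, the 3 being without KE replicate 3, where Dusp8 and Dusp16 lost their calls. With no filter on low values Dusp2 became a further downregulated member, which makes 3, at a mean of 7.90 normalized counts. The difference of mean log2 of Dusp2 was -1.01 without KE replicate 3, against -1.58 with all cultures, and that of Dusp9 was -0.56 without NT replicate 1, against -1.12. No result changed sign. Scalings moved the median log2FC of all genes by at most 0.03. Of the further lists, 15 counts of called genes moved by over 1.5 times: other phosphatases downregulated to 3, MAP kinases downregulated to 2, and Sprouty and Spred genes and AU-rich element binding proteins upregulated to 1. Same-numbered KE and NT cultures deviated together only weakly, with r of 0.059, 0.066 and 0.065 across genes, so the numbers do not pair the cultures by themselves. With the replicate block, 5 members were upregulated and 2 downregulated as without it, and 8046 genes were called, 7669 of them also without the block. Each of the 3 KE and 3 NT cultures correlated best with its own number, which is a hint from the data only. The depth limits Dusp2 and Dusp9, which rest on 1 to 17 reads per culture.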

Other observations

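Messenger RNAs of inducible phosphatases such as Dusp1 are short-lived, and proteins that bind AU-rich elements govern how fast such messages decay. Of 6 genes for such proteins, 2 rose and 3 fell in KE, and 1 rose without NT replicate 2. Over all tested genes, 25.3% were upregulated and 26.0% downregulated. Zfp36, which encodes tristetraprolin, had a log2FC of 0.57 (534 ± 35.9 normalized counts in KE against 360.3 ± 33.0 in NT, SD, n = 3). Its relative Zfp36l1 had a log2FC of 0.21. The genes Hnrnpd, Khsrp and Elavl1 had log2FC of -0.64, -0.43 and -0.25. Among markers of other cells, 7 of 7 tested oligodendrocyte lineage genes fell, with a median log2FC of -0.55. Neuronal markers were mixed, with 2 of 6 tested genes down, 1 up and a median of -0.04. Of 8 tested endothelial and mesenchymal genes 4 fell, 1 rose and 3 were not called, with a median of -0.54. Of all tested genes 51.3% were called, and in these last 2 lists the calls of both directions together are close to that share. By direction, the endothelial and mesenchymal list had more falls than rises, against 26.0% and 25.3% of all tested genes. RNA decay was not measured.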
